A study of Mus musculus with 3 samples.

Results

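The analysis concerned 7 chemokine genes, *Ccl2*, *Ccl5*, *Ccl7*, *Cxcl1*, *Cxcl5*, *Cxcl10* and *Cxcl12*, out of 28953 genes listed in at least 1 of 3 single-cell count tables of mouse cells. All 7 genes were listed in each table. They were picked by name after the counts of some of them had been seen to be high in 2 groups of cells. These were the 662 cells of code 5 at day 6 (D6) and the 53 cells of code 9 in the day 10 (D10) culture. The levels in these groups are therefore a description and support nothing by themselves.

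Chemokines are small secreted proteins that steer migrating cells through receptors on the cell surface. Most are made on demand: fibroblasts, endothelial cells and leukocytes switch them on after inflammatory signals that act through the transcription factor NF-κB or through interferons. *Cxcl12* is the exception in this group, since mesenchymal and stromal cells make it constitutively and it guides progenitor, germ and muscle precursor cells in the embryo.

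The first library, D6 PM, held 5954 cells from mouse embryonic stem cells (mESCs) driven to paraxial mesoderm (PM) with the Wnt agonist CHIR and the BMP inhibitor LDN-193189. The second, D10 culture, held 7821 cells of the same kind of differentiation after further culture with TGFβ1 and the hedgehog agonist SAG, with FGF2 in the medium. The third, E14.5 tail, held 2052 cells of tails of mouse embryos of that stage. The stem cells and the embryos carried the ScxGFP reporter, in which tendon cells fluoresce, and the cells were taken without sorting for it. Before differentiation the mESCs were kept on irradiated mouse embryonic fibroblast feeders.

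Each condition was 1 library, so no test between conditions or codes was possible. Levels are given as CPM, the summed unique molecular identifiers (UMIs) in a code scaled to a total of 1000000, with exact 95% Poisson intervals. These intervals, the intervals of ratios (exact conditional binomial) and those of shares of cells (Clopper-Pearson) cover counting error only, not the spread between cultures or animals. The median cell held 8171 UMIs at D6, 5622 in the culture and 13512 in the tail. Codes are the cluster numbers deposited with the cells: code 9 of the culture and code 9 of the tail belong to 1 shared numbering, whereas the D6 codes are separate. Between 3 and 10 cell barcodes were shared by any pair of libraries. Of the groups formed by code and library, 27 held at least 50 cells and were used for levels.

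Neither group could be given a cell type name. In D6 code 5 all 18 fibroblast markers had UMIs, with a summed level of 13490 CPM against 453 to 1916 CPM in the other D6 codes, and *Col1a1*, the main fibrillar collagen gene, stood at 3858 CPM. The same code also held UMIs of all 12 leukocyte markers, summing to 954 CPM. Its leading genes by ratio mixed macrophage genes (*Cd5l*, *Cd53*) with matrix proteases (*Mmp13*, *Mmp10*), with *Ccl7* at rank 7. Culture code 9 had a fibroblast sum of 14908 CPM and a leukocyte sum of 2464 CPM, with *Adgre1* and *C1qb* at 0. It was led by the leukocyte genes *Lyz2* and *Tyrobp*, with the matrix protease *Mmp3* at rank 3. Of its 53 cells, 44 held no leukocyte marker. In tail code 9 the fibroblast and leukocyte sums were 13179 and 2991 CPM. In culture code 9, 9 of 18 fibroblast markers were at least 2-fold above the other culture cells and 1 as far below. In tail code 9, 6 of 18 were above the other tail cells and 1 below by that measure. Over all genes 15.1% were higher and 17% lower in culture code 9, and 8.96% and 15.3% in tail code 9. Markers of the labelled tissues were low in D6 code 5: the paraxial mesoderm markers summed to 15.8 CPM and the tendon markers to 7.97 CPM.

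Sex-linked transcripts also set these codes apart from the rest of their libraries. In D6 code 5, 205 cells (31.0%) held a UMI of a Y-linked gene and 263 (39.7%) held *Xist*, the transcript of the inactive X chromosome, with 4 cells holding both. Among the other D6 cells the shares were 0.302% and 3.08%. The shares were 15.1% and 35.8% in culture code 9, against 0.0515% and 1.76% of the other culture cells. The chemokines were found in D6 code 5 cells of either kind: *Ccl7* had a UMI in 11.9% of the Y-only and 11.97% of the *Xist*-only cells, and *Cxcl1* in 20.4% and 16.6%. Whether these codes hold feeder cells carried over from stem cell maintenance was not tested.

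Reference promoters were read for the genes that a RefSeq table of promoters on GRCm38.p6 held, 3 of the 7, because NF-κB and interferon-responsive factors act through short DNA motifs near the start site of such genes. The genome build behind the counts was not given in the sources used here. Each sequence below is the 250 bases before the annotated start, 5′ to 3′ on the gene's strand, and capitals mark a motif match. The *Cxcl1* sequence is chr5:90890995-90891244 on the plus strand, the *Cxcl10* sequence chr5:92348890-92349139 on the minus strand, and the *Cxcl12* sequence chr6:117168285-117168534 on the plus strand.
Cxcl1: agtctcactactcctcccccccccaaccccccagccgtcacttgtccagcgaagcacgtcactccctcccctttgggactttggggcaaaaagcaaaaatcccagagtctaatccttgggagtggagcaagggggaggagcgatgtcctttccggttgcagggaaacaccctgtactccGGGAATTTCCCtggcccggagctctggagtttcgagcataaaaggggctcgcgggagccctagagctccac
Cxcl10: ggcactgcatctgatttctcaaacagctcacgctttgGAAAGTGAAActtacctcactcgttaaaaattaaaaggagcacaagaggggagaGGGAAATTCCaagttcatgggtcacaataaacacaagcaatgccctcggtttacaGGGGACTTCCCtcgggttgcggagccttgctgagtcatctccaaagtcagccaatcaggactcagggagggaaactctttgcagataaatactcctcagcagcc
Cxcl12: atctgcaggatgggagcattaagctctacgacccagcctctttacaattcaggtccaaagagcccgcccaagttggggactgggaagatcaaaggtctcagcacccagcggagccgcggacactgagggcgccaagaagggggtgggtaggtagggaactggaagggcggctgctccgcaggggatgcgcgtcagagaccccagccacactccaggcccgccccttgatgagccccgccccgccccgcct

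The κB consensus, searched on both strands, matched in *Cxcl1* from -71 to -62 and, on the other strand, from -70 to -61, overlapping matches that are capitalised as 1 stretch. In *Cxcl10* it matched from -159 to -150 and in a further stretch of overlapping matches from -104 to -94. Of 32851 promoter windows of this length, 2382 (7.25%) held a match. The interferon-type repeat, GAAA followed after any 2 bases by a further GAAA and also searched on both strands, matched in *Cxcl10* from -213 to -204 and occurred in 978 windows (2.98%). The *Cxcl12* window held neither motif, and none of the 3 held TATAAA, which 12.4% of windows did. No match overlapped one of another motif. These are matches of letters and not measured binding.

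**Figure D1:**
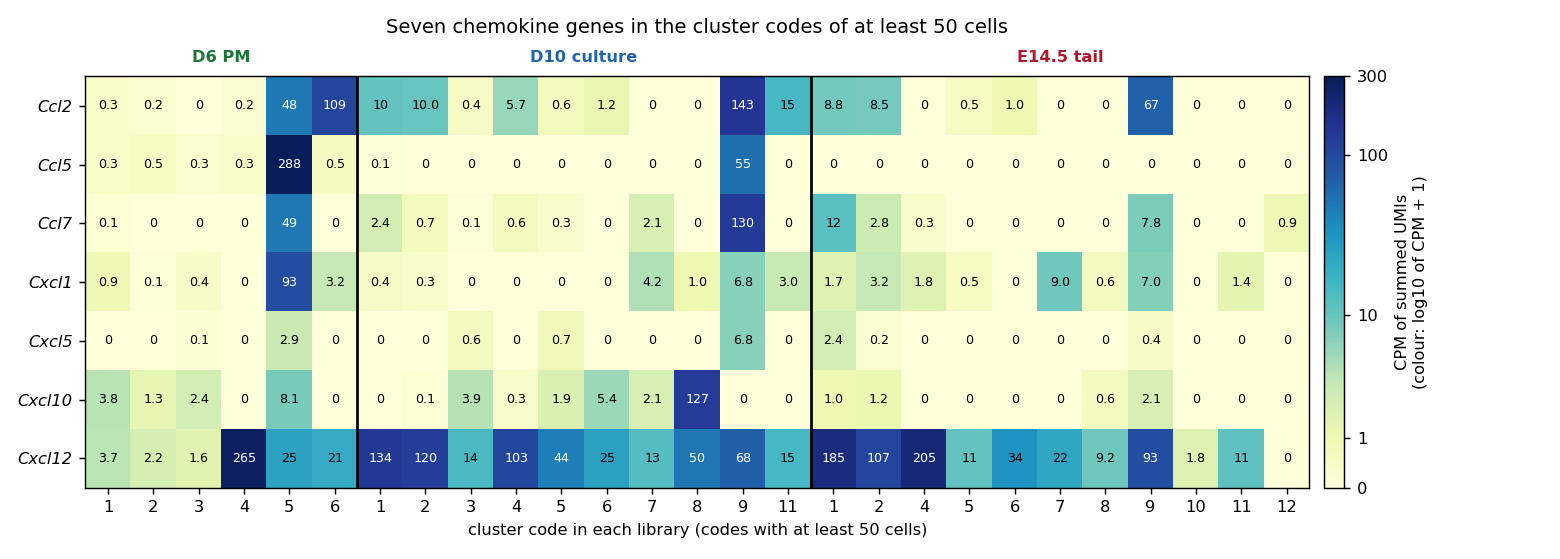
Level of each chemokine gene (rows, CPM of summed UMIs, printed in each cell and coloured on a log10 scale of CPM + 1) in the 27 cluster codes of at least 50 cells (columns), by library. *Ccl5* stands high in D6 code 5 (288 CPM) and culture code 9 (54.7 CPM) only, while *Cxcl12* has UMIs in every column but tail code 12.

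Of the monocyte-attracting ligands, *Ccl2* (MCP-1), the main ligand of the receptor Ccr2, had 281 UMIs in D6 code 5, a level of 47.6 CPM (42.2 to 53.6). The other 5292 D6 cells together held 216 UMIs, or 4.70 CPM. The ratio was 10.1 (8.46 to 12.2), but 152 of those 216 UMIs lay in 1 cell of D6 code 6, and without the richest cell on either side the ratio was 27.3. D6 code 6 itself (194 cells, with summed endothelial markers of 2224 CPM and erythroid markers of 5033 CPM) read 109 CPM with that cell and 28.5 CPM without it. Here and below, a level without a cell leaves out that cell's UMIs of the gene and keeps the total of the code. Culture code 9 held 63 *Ccl2* UMIs in 12 cells, 143 CPM (110.27 to 184), against 5.97 CPM in the other 7768 culture cells, a ratio of 24.1 (18.1 to 31.6). Tail code 9 (157 cells) held 162 UMIs in 16 cells, 66.6 CPM (56.8 to 77.7), and 14.9-fold (11.8 to 19.0) the level of the other tail cells.

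In order, the highest *Ccl2* levels were thus those of culture code 9, D6 code 6, tail code 9 and D6 code 5. The first pair had overlapping intervals, and each later step down to culture code 11 (15.2 CPM) did not overlap with the next. A lower plateau followed in culture codes 1 (10.5 CPM) and 2 (9.99 CPM) and tail codes 1 (8.79 CPM) and 2 (8.55 CPM), with overlapping intervals. Of the 27 groups, 9 held no *Ccl2* UMI.

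*Ccl7* (MCP-3), a Ccr2 ligand encoded close to *Ccl2*, was highest in culture code 9 and next highest in D6 code 5. D6 code 5 held 290 UMIs in 63 cells, 49.2 CPM (43.7 to 55.2), and all other D6 cells held 2 UMIs, 0.0435 CPM, a ratio of 1130.0 (310.0 to 9375). Its UMIs were the most evenly spread of the inducible genes, with 8.62% in the richest cell. Culture code 9 held 57 UMIs in 12 cells, 130 CPM (98.3 to 168), against 53 UMIs or 1.001 CPM in the other culture cells, a ratio of 130 (87.7 to 192). In the tail the highest level was in code 1, with 122 UMIs and 12.05 CPM. There 61 of the UMIs came from 1 cell, and without it the level was 6.02 CPM. Tail code 9 read 7.81 CPM from 19 UMIs.

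*Ccl5* (RANTES), which attracts T cells and monocytes, had no UMI in 19 of the 27 groups, as many as *Cxcl5*. D6 code 5 held 1697 UMIs, 288 CPM (274 to 302), in 49 cells, against 17 UMIs or 0.370 CPM in the other D6 cells, a ratio of 778 (484 to 1339). The richest cell alone held 578 UMIs, 34.1% of the total, and the 5 richest held 59.3%. In that cell *Ccl5* made up 33306 CPM of the 17354 UMIs of the cell. Without it the code read 189.7 CPM. Culture code 9 held 24 UMIs, 54.7 CPM (35.0 to 81.3), in 3 cells. Of these, 22 were in 1 cell with 1622 UMIs in all, and the level without it was 4.56 CPM. The other culture cells held 1 UMI in total, and the ratio was 2895 (472 to 119065). No *Ccl5* UMI was found in 2052 tail cells.

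The neutrophil-attracting ligands signal through Cxcr2. *Cxcl1* (KC) had 551 UMIs in D6 code 5, 93.4 CPM (85.8 to 101.6), in 89 cells, the largest number of cells of any inducible gene of the group. The other D6 cells held 26 UMIs, 0.566 CPM, and the ratio was 165 (111 to 255). A single cell held 237 UMIs (43.0%), and without it the level was 53.2 CPM. Culture code 9 held 3 *Cxcl1* UMIs in 2 cells (6.83 CPM, 1.41 to 19.97), at the floor of 3 counts. In tail code 9, 15 of its 17 UMIs lay in 1 cell. *Cxcl1* outside D6 code 5 reached at most 8.97 CPM, a value from 2 UMIs, and 8 groups held none.

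*Cxcl5* (LIX) was scarce everywhere. D6 code 5 held 17 UMIs, 2.88 CPM (1.68 to 4.62), of which 10 were in 1 cell, and the other D6 cells held 1 UMI. With under 20 UMIs in all it was not counted in the comparison. Culture code 9 held 3 UMIs in 1 cell. The largest total was that of tail code 1, with 24 UMIs in 15 of 685 cells, 2.37 CPM.

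*Cxcl10* (IP-10), the interferon-inducible ligand of Cxcr3, did not follow the same codes. D6 code 5 held 48 UMIs, 8.14 CPM (6.001 to 10.8), in 6 cells, with 29 UMIs in 1 of them. The ratio to the other D6 cells was 3.63 (2.52 to 5.16), fell to 1.88 without the richest cell on each side and lay below 1, at 0.148, without the 5 richest. That removal left 1 *Cxcl10* UMI in D6 code 5, so no direction is read from it. Culture code 9 held no *Cxcl10* UMI. Taking 3 counts over 53 cells as the limit, in place of a Clopper-Pearson interval, leaves room for a share of 5.66% of cells with a UMI. This is a limit on detection and not on expression. The highest level was in culture code 8, with 130 UMIs in 15 of 155 cells, 127 CPM (106 to 151). These were 64.0% of the *Cxcl10* UMIs of the culture. Code 8 carried summed epithelial markers of 8810 CPM and endoderm markers of 3769 CPM, and it held no UMI of *Ccl2*, *Ccl5*, *Ccl7* or *Cxcl5*.

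**Figure D2:**
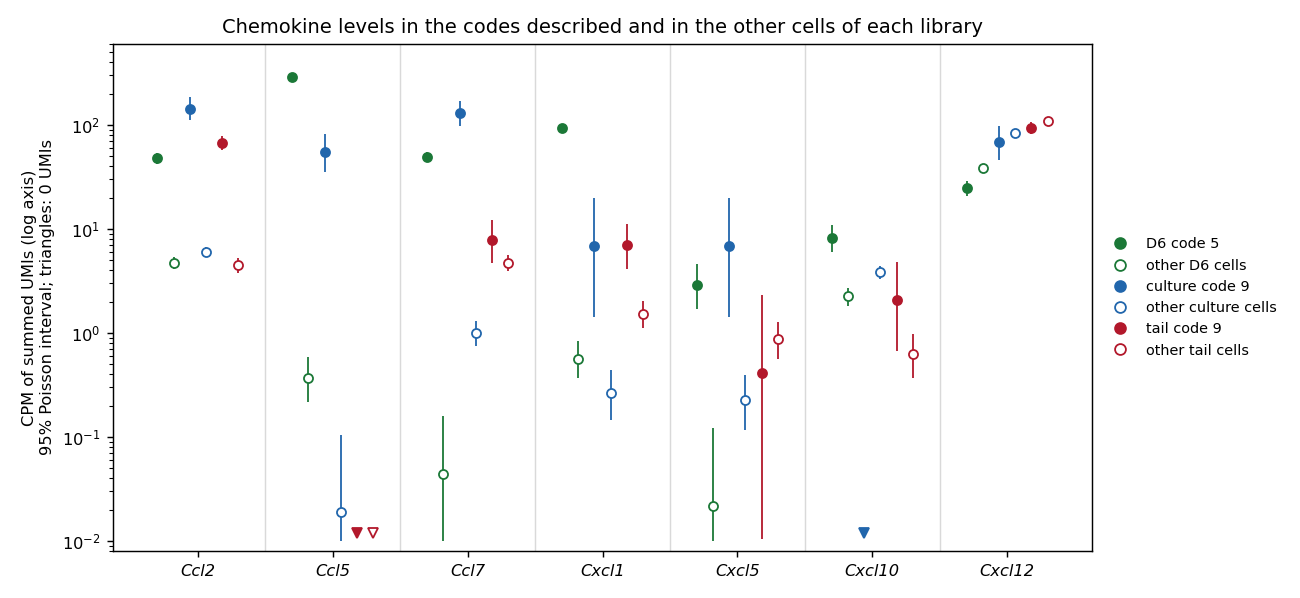
CPM of summed UMIs (log axis) of each chemokine gene in D6 code 5, culture code 9 and tail code 9 (filled points) and in the other cells of the same library (open points), with 95% Poisson intervals as bars and triangles for 0 UMIs. The filled points of *Ccl2* lie above the open points in all 3 libraries, and those of *Cxcl12* do not in any.

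Counting a gene as higher when its CPM was at least 2-fold above that of the other cells, with at least 20 UMIs in both groups together, 5 of the 6 chemokine genes that could be counted were higher in D6 code 5, and *Cxcl12* was neither higher nor lower. Over all genes, 16.7% of 18550 met the same rule. For culture code 9, 3 of 5 were higher (*Ccl2*, *Ccl5* and *Ccl7*), against 15.1% of 18269 genes. For tail code 9 the count was 3 of 6 (*Ccl2*, *Cxcl1* and *Cxcl10*), against 8.96% of 17814 genes, with *Cxcl5* lower, although *Cxcl10* rests on 5 UMIs there and *Cxcl5* on 1. Without the cell with 15 *Cxcl1* UMIs tail code 9 read 0.822 CPM for that gene, below the 1.52 CPM of the other tail cells. The *Ccl5* call in culture code 9 ends without its richest cell, which leaves too few UMIs to count. The lowest *Ccl5* ratio of culture code 9 to the other culture cells, over the processing alternatives, was 80.7. It is a lower bound from few UMIs, with the floor of 3 counts standing in for the other culture cells. *Cxcl10* in D6 code 5 turns to 0.148 without the 5 richest cells of each group, which leaves 1 UMI in the code. Because the genes were chosen from these very counts, nothing is read from the difference.

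The UMIs came from few cells. In D6 code 5 the 7 genes together had 3029 UMIs, 231 of 662 cells (34.9%) held any of them, and 9 cells held 50% of them. Of the other D6 cells 12.3% held any. In culture code 9, 25 of 53 cells (47.2%) held any of the 180 UMIs, and 4 cells held 50%. Of the other culture cells 30.8% held any, mostly *Cxcl12*. Without *Cxcl12* the shares were 35.8% in culture code 9 and 3.49% in the other culture cells, and 28.1% in D6 code 5 and 1.70% in the other D6 cells. The share of D6 code 5 cells with a UMI was 5.14% for *Ccl2*, 7.40% for *Ccl5*, 9.52% for *Ccl7* and 13.4% for *Cxcl1*. Such shares depend on depth, so cells were also thinned to 3000 UMIs each, which 472 of 662 cells in the code and 4476 of the other D6 cells allowed. The thinned shares were 3.60%, 6.36%, 6.36% and 7.42%, against 0.223%, 0.0894%, 0.0223% and 0.112% of the other D6 cells. Free RNA can give a low share in every cell type and was not measured here. The shares of the other cells, whose median depth was 8138 UMIs against 8628, stand in for that background. They also include cells rich in a gene, such as the D6 code 6 cell with 152 *Ccl2* UMIs.

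**Figure D3:**
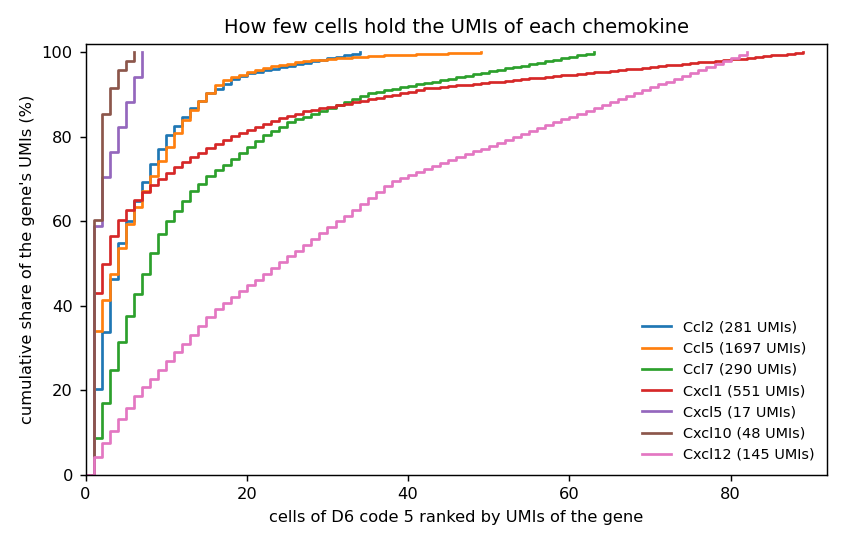
Cumulative share of the UMIs of each chemokine gene (percent) over the cells of D6 code 5 ranked from the richest, with each gene's total in the legend. The *Cxcl1* curve starts at 43.0% with 1 cell, and that of *Cxcl12* at 4.14%.

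Some chemokines were found in the same cells. *Ccl7* was present in 17 of the 34 *Ccl2*-positive cells of D6 code 5 (50%) but in 9.52% of all cells of the code, and *Cxcl1* in 12 of the 34. The *Ccl2*-positive cells were deeper, with a median of 15785 UMIs against 8628 for the code. After thinning, 7 of 17 *Ccl2*-positive cells held *Ccl7*, which 30 of 472 cells did. In culture code 9, 7 of 12 *Ccl2*-positive cells held *Ccl7*, and 4 of 7 after thinning. *Ccl5* did not share cells with this pair beyond the shares in the whole code, with *Ccl7* in 3 of the 49 *Ccl5*-positive cells (6.12%) and *Ccl2* in 2 (5.88% of the *Ccl2*-positive cells, against 7.40% of all). Of the 3 *Ccl5*-positive cells in culture code 9, 2 held *Ccl2* and 1 held *Ccl7*. The richest cells differed in what else they held. The cell with 237 *Cxcl1* UMIs also held 38 of *Ccl2* and 29 of *Cxcl10*, and another held 35 of *Ccl2*, 24 of *Ccl7*, 38 of *Cxcl1* and 10 of *Cxcl5*. The richest *Ccl5* cell held 6 *Cxcl1* UMIs and none of *Ccl2* or *Ccl7*, and the next, with 126 *Ccl5* UMIs, held 2 of *Ccl2*.

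At 3000 UMIs per cell, 21 of 472 cells of D6 code 5 (4.45%, 2.77 to 6.72) held at least 2 of the 7 genes, against 3 of 4476 other D6 cells (0.0670%). The count was 4 of 36 cells (11.1%, 3.11 to 26.1) in culture code 9, against 23 of 6628 (0.347%). The genes were chosen from the counts of these codes, which by itself raises such shares, so nothing is read from the difference. No cell of D6 code 5 held more than 4 of the genes.

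D6 code 5, culture code 9 and tail code 9 all held leukocyte markers, so their cells were split by them. In D6 code 5, 17 cells held UMIs of at least 3 of the 12 leukocyte markers. These cells held 3.20% of the *Ccl2* UMIs of the code, 0.177% of *Ccl5*, 1.72% of *Ccl7* and 0.544% of *Cxcl1*. The 504 cells without any leukocyte marker held 80.4% of the *Ccl2*, 47.5% of the *Ccl5*, 57.2% of the *Ccl7* and 80.6% of the *Cxcl1* UMIs. They read 43.8 CPM for *Ccl7*, against 49.2 CPM in the whole code, and 212.5 CPM for *Ccl5*, against 288 CPM. The richest *Ccl5* cell, with 578 UMIs, and the next, with 126, each held 1 marker. Of the 49 *Ccl5*-positive cells, 41 held none. The median depth was 6608 UMIs in the cells without a marker and 17937 in those with at least 3. The 645 cells with fewer than 3 markers read 48.3 CPM for *Ccl2*, 301 CPM for *Ccl5*, 50.6 CPM for *Ccl7* and 97.3 CPM for *Cxcl1*, all close to the levels of the whole code. In culture code 9 the 5 cells with such markers held 3 of the 63 *Ccl2* UMIs and none of the other 6 genes. The 48 others read 156 CPM for *Ccl2* and 148 CPM for *Ccl7*.

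*Ccl2* and *Ccl7* lay differently in tail code 9. Its 34 cells with at least 3 leukocyte markers held 157 of the 162 *Ccl2* UMIs (96.9%), 194 CPM against 3.08 CPM in the other 123 cells. They held 14 of the 19 *Ccl7* UMIs, 17.3 against 3.08 CPM, but 11 of the 14 were in 1 cell. All 17 *Cxcl1* UMIs were in the cells with fewer markers. *Cxcl12* was likewise lower with the markers, at 18.6 CPM in the cells with at least 3 and 131 CPM in those with fewer. The median cell held 8100 UMIs in culture code 9 and 13772 in tail code 9, so fewer markers can be seen per culture cell, and how far this sets the contrast was not tested.

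**Figure D4:**
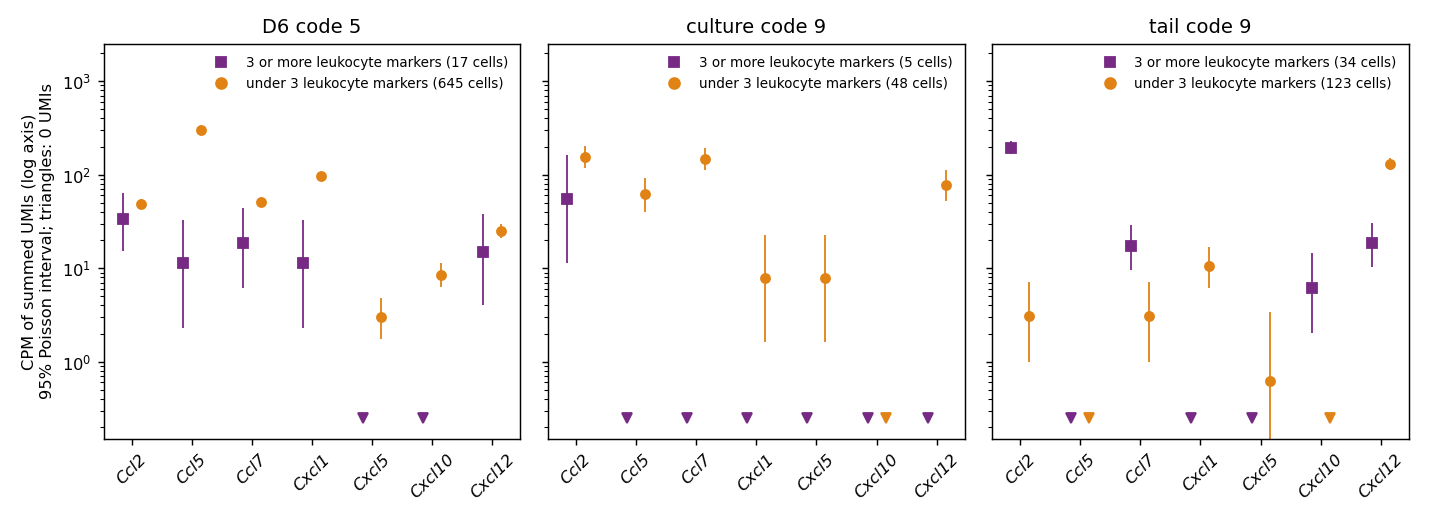
CPM of summed UMIs (log axis) of each chemokine gene in the cells of D6 code 5, culture code 9 and tail code 9, split into cells with UMIs of at least 3 of 12 leukocyte markers (squares) and cells with fewer (circles), with 95% Poisson intervals and triangles for 0 UMIs. *Ccl2* is at 194 CPM in the marker-bearing cells of the tail and 3.08 CPM in the rest, whereas in D6 code 5 both kinds of cell hold it.

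Set against tail code 9, culture code 9 had 2.15-fold (1.58 to 2.90) the *Ccl2* level and 16.6-fold (9.74 to 29.6) the *Ccl7* level. *Ccl5* was at least 44.3-fold higher, taking 3 counts over tail code 9 as the floor, but without the richest cell of each group this bound was 3.69-fold. *Cxcl1* differed by a ratio of 0.977 (0.184 to 3.38) and *Cxcl12* by 0.732 (0.483 to 1.07), intervals that include 1. By the 2-fold rule 3 of 5 genes were higher, against 11.4% of 10908 genes. Without the 5 richest cells of each group the count was 0, with *Ccl2* at 1.96 and too few UMIs left to count *Ccl5* and *Ccl7*. When cells with at least 3 leukocyte markers were left out of both, the ratio was 50.7 for *Ccl2* and 48.2 for *Ccl7*.

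D6 code 5 and culture code 9 held the genes in different proportions. *Ccl5* was 5.26-fold (3.53 to 8.24) and *Cxcl1* 13.7-fold (4.65 to 66.5) as high in D6 code 5. The size of the *Ccl5* ratio depends on the richest cell of each code. Without these cells the levels lay further apart, at 189.7 CPM in D6 code 5 and 4.56 CPM in culture code 9. *Ccl2*, *Ccl7* and *Cxcl12* stood at 0.332, 0.379 and 0.360 of their level in culture code 9, with intervals whose upper ends were 0.444, 0.512 and 0.552. The 7 genes thus gave 2 higher and 4 lower, *Cxcl5* among the latter on 20 UMIs in all. Over all 11823 genes counted, 11.1% were higher and 8.8% lower in D6 code 5 by the 2-fold rule. Library and culture day cannot be told apart here.

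*Cxcl12* (SDF-1), the ligand of Cxcr4 that is also scavenged by Ackr3, had its own pattern. It was highest in D6 code 4, with 1609 UMIs in 494 of 700 cells (70.6%), a level of 265 CPM (252 to 278). This code held 84.7% of the *Cxcl12* UMIs at D6, and its level was 41.6-fold (36.7 to 47.3) that of the other D6 cells. No cell held more than 16 of these UMIs. After thinning, 48.2% of 606 cells held the gene. Code 4 was also the D6 code with the highest summed paraxial mesoderm markers, 425 CPM against 16 to 97 CPM elsewhere. It also led in muscle markers, with 307 CPM against 9.33 to 21.1 CPM, in cartilage markers, with 257 CPM against 6.81 to 42.0 CPM, and in tendon markers, with 65.0 CPM against at most 30.2 CPM. By contrast *Ccl7*, *Cxcl1*, *Cxcl5* and *Cxcl10* had no UMI there. The other abundant D6 codes held little *Cxcl12*, with 3.74, 2.22 and 1.57 CPM in codes 1, 2 and 3, and D6 code 5 read 24.6 CPM (20.7 to 28.9), 0.644 (0.540 to 0.763) of the other D6 cells.

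In the tail *Cxcl12* reached 205 CPM (190 to 221) in code 4 and 185 CPM (177 to 194) in code 1, which did not differ beyond their intervals. The culture was lower, at 134 CPM (128 to 139) in code 1, 119.6 CPM (113 to 126) in code 2 and 103 CPM (92.8 to 115) in code 4. Tail code 2 (107 CPM) overlapped with culture codes 2 and 4. Tail code 9 and culture code 9 stood at 93.3 and 68.3 CPM, with overlapping intervals. Culture code 3 (14.2 CPM) was among the low groups, and tail code 12 alone among the 27 groups held no UMI.

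The receptors lay mostly in other codes than their ligand. *Cxcr4* was highest in culture code 11 (42.4 CPM, 14 UMIs in 12 of 58 cells), tail code 11 (22.6 CPM) and D6 code 3 (19.3 CPM), and stood at 3.3 CPM in the *Cxcl12*-rich D6 code 4. *Ackr3* was highest in D6 codes 3 (73.1 CPM, 309 of 821 cells) and 1 (62.5 CPM), where *Cxcl12* was near its lowest, and stood at 12.8 CPM in D6 code 4. In the tail, *Ackr3* and *Cxcl12* were found together in code 1, at 41.6 and 185 CPM. D6 code 5 had 0.155 of the *Cxcr4* and 0.108 of the *Ackr3* level of the other D6 cells.

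**Figure D5:**
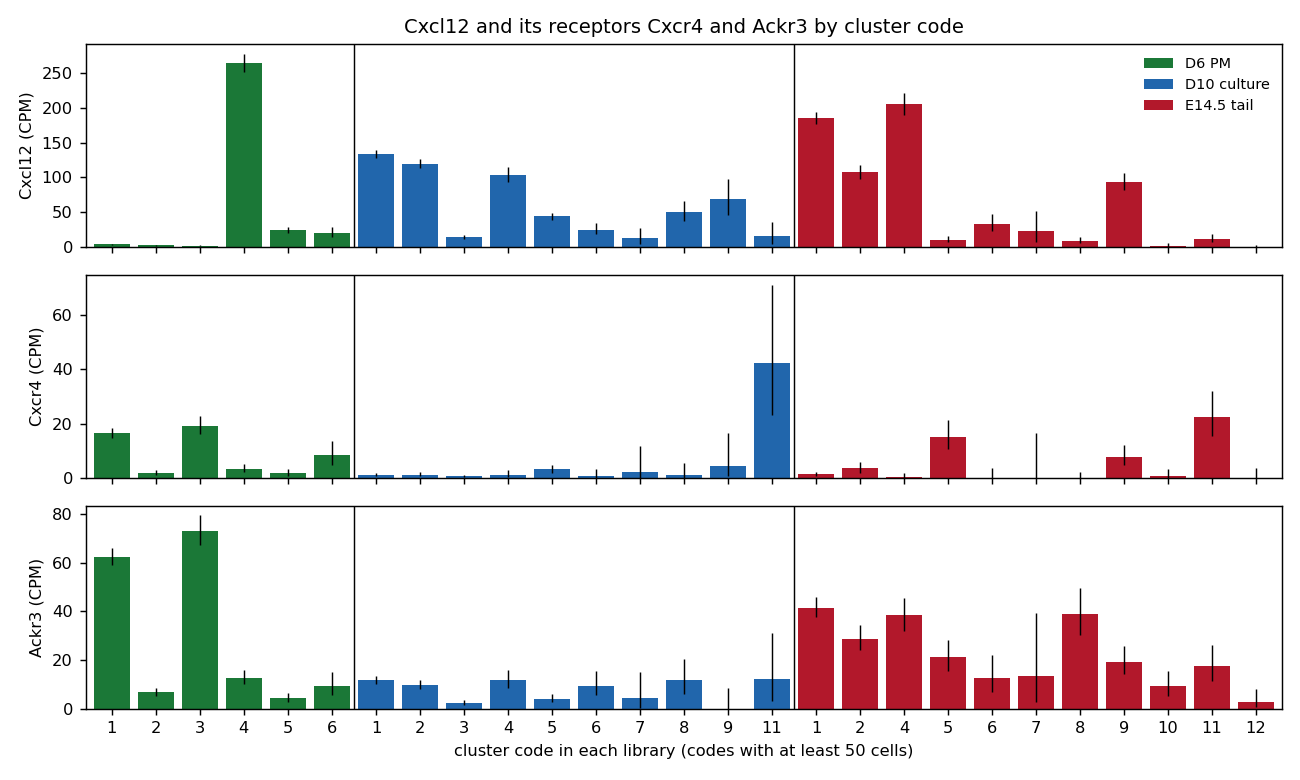
CPM of summed UMIs of *Cxcl12* and its receptors *Cxcr4* and *Ackr3* (3 panels, linear axes from 0) in the 27 cluster codes of at least 50 cells, with 95% Poisson intervals. D6 code 4 has the tallest *Cxcl12* bar (265 CPM) with low bars for both receptors, and D6 codes 1 and 3 the reverse.

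Receptors of the inducible ligands were highest in tail code 9. *Ccr2*, the receptor of *Ccl2* and *Ccl7*, read 122 CPM there in 22 of 157 cells, and 295 of its 296 UMIs lay in the 34 cells with leukocyte markers. The gene was not listed for D6. *Ccr1*, a receptor of *Ccl5*, read 48.5 CPM in tail code 9. D6 code 5 held 39 *Ccr1* UMIs (6.61 CPM) in 21 cells. *Cxcr2* and *Cxcr3* had 2 and 4 UMIs in tail code 9, too few to place them.

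Some further ligands were also found in D6 code 5. Of 12 further chemokine ligands with enough UMIs, 7 were higher and 1 was lower than in the other D6 cells, with a median log2 ratio of 3.80 against -0.31 over all genes, of which 16.7% were higher and 29% lower. *Ccl8*, another monocyte-attracting ligand, held 776 UMIs in 88 cells, 132 CPM, a ratio of 378 (231 to 665). It was present in 29 of the 63 *Ccl7*-positive cells (46.0%). *Cxcl2*, a further Cxcr2 ligand, held 416 UMIs (70.5 CPM), 307 of them in 1 cell, and 9 of its 14 positive cells also held *Cxcl1*. *Pf4* and *Ccl3* were different, with 190 of 191 and 48 of 48 UMIs in the 17 cells with leukocyte markers. *Ccl8*, *Cxcl2*, *Pf4* and *Ccl3* met the count minimum mainly through D6 code 5, with 16, 9, 5 and 0 UMIs in other D6 cells. Nothing is therefore read from the counts of further ligands. Culture code 9 had 5 of 9 further ligands higher, against 15.1% of all genes. There *Ccl8* held 45 UMIs in 8 cells, 102.5 CPM, against none in tail code 9. That gene was the only one of 12 further ligands that was higher in culture code 9 than in tail code 9, and 9 were lower, with a median log2 ratio of -1.78 against -0.40 over all genes, of which 11.4% were higher and 29.1% lower. Tail code 9 itself had 11 of 16 further ligands higher and 2 lower than the other tail cells, against 8.96% and 15.3% of all genes.

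The NF-κB list, pathway members and known responders, had 15 of 21 genes higher and 0 lower in D6 code 5, with a median log2 ratio of 1.79. Over all genes 16.7% were higher and 29% lower there, and 15.1% and 17% in culture code 9. *Nfkbia*, which encodes the inhibitor IκBα and is itself induced by NF-κB, read 348 CPM, 3.37-fold the other cells. *Ptgs2*, the inducible cyclooxygenase, read 69.7 CPM (267-fold), *Csf1*, a macrophage growth factor, 52.7 CPM (16.9-fold), and *Vcam1*, an adhesion molecule, 40.01 CPM (36.8-fold). *Sod2* and *Nfkb1* were not higher, at 0.749 and 0.846 of the other cells. *Ptgs2*, *Il1a* and *Lcn2* met the count minimum mainly through D6 code 5, with 12, 1 and 0 UMIs in the other D6 cells. Nothing is therefore read from the count of higher genes of this list in D6 code 5. Culture code 9 had 8 of 20 higher and 0 lower, with a median of 0.78 against 0.35 over all genes. Tail code 9 had 9 of 19 higher and 0 lower than the other tail cells, against 8.96% and 15.3% of all genes, and culture code 9 had 4 of 16 higher and 5 lower than tail code 9, against 11.4% and 29.1%. In culture code 9 *Csf1* read 88.8 CPM (11.2-fold) and *Nfkbia* 123 CPM (1.88-fold).

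The interferon list had 21 of 29 genes higher and 0 lower in D6 code 5, against 16.7% and 29% of all genes, with a median log2 ratio of 2.28. By CPM antigen presentation genes led it, with *B2m* at 1726 CPM (16.6-fold) and *H2-D1* at 975 CPM (22.6-fold). The antiviral genes *Ifit1* and *Ifit3* read 43.9 CPM (31.5-fold) and 11.2 CPM (17.1-fold). *Bst2* was not higher, at 1.27-fold. There were 10 of 24 higher and 1 lower in culture code 9, against 15.1% and 17% of all genes, with *B2m* at 979 CPM (11.8-fold) and *H2-D1* at 426 CPM (29.8-fold). Between culture code 9 and tail code 9 the same list had 5 of 19 higher and 6 lower, against 11.4% higher and 29.1% lower over all genes. Tail code 9 had 20 of 26 higher and 1 lower than the other tail cells, where 8.96% and 15.3% of all genes were. All 18 fibroblast markers and all 11 counted leukocyte markers were also higher in D6 code 5, with medians of 5.02 and 6.28, and how far these cell markers account for the list values was not tested. A gene found mainly in D6 code 5 meets the count minimum through that code, so nothing is read from these marker counts. In D6 code 5, 504 of the 662 cells held no leukocyte marker.

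Across the 27 groups, the genes whose CPM ranked most like each chemokine were sought among 17187 genes with at least 100 UMIs. The groups share libraries and depth, so Spearman's rho is a description. *Ccl2* was most like *Ccdc3* (0.75), *Anpep* (0.73) and *Nid1* (0.72), and its rho with *Ccl7* was 0.48. *Ccl7* was most like *Il33* (0.81), and *Cxcl1* like *Mbd2* (0.86) and *S100a10* (0.86). *Cxcl12* was most like *Tgfbi* (0.85), *Gpx7* (0.85) and *Nfatc4* (0.83), and *Cxcl10* like *Rasgrf1* (0.80). For *Ccl5*, at 0 in 19 groups, the leading values of 0.86 for *1700001C19Rik* and 0.83 for *Atp6v0d2* rest mostly on ties.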

How the data were processed

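Single-cell 3′ RNA libraries were made with 10x chemistry after dead-cell depletion. The authors aligned reads with Cell Ranger, ignored reads that map to several places, removed cells with high mitochondrial content or extreme transcript numbers, and clustered with Seurat 3.0, assigning culture cells to tail clusters. The deposited values are raw UMI counts per gene and cell with a cluster code. The genome build is not given in the sources used here.

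Counts were summed by code and divided by the group total (CPM) in Python 3.11.15 with NumPy 2.4.6, SciPy 1.17.1, pandas 2.3.3, Scanpy 1.11.5 and Matplotlib 3.10.9. No further cells were removed. Scrublet, run in Scanpy, called 116 culture, 9 tail and 81 D6 cells as doublets (1.48%, 0.439% and 1.36%), which were left out as an alternative.

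The genes, lists, markers and comparisons were chosen with earlier results of these data known. Named genes were all 7, list genes with the highest CPM or ratio in either code, receptors, and the genes most like each by rank. Alternatives changed the averaging over cells, the totals, the cells counted, the count minimum, the fold and the thinning depth.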

Additional observations from a re-analysis of the deposited data

How the results depend on the processing

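No paired analysis was possible because each condition is 1 library and no replicate is shared. Of 109 alternative ratios for 16 gene comparisons, 89 moved by less than their counting interval, 19 moved further without changing direction, and 1 changed direction: *Cxcl10* in D6 code 5 against the other D6 cells went from 3.63 to 0.148 without the 5 richest cells of each group. That removal left 1 *Cxcl10* UMI in D6 code 5, so no direction is read from it. The number of genes higher in D6 code 5 was 5 and stayed between 4 and 6. In culture code 9 it went from 3 to 5 when 5 UMIs sufficed, which admits *Cxcl1* and *Cxcl5*. Culture code 9 against tail code 9 went from 3 to 0 without the 5 richest cells of each group, which leaves fewer UMIs to count. The share of D6 code 5 cells with at least 2 of the genes moved from 4.45% to 8.31% at 5000 UMIs per cell, 2.19% at 1500 and 10.9% without thinning, and that of culture code 9 from 11.1% to 26.4% without thinning. *Ccl2* in D6 code 5 ranged from 7.52 to 42.1 over the alternatives, and *Ccl5* in culture code 9 from 80.7 to 7556, with *Ccl5* no longer counted as higher when cells under 1000 genes were left out. The value of 80.7 is a lower bound from few UMIs that uses the floor of 3 counts for the other culture cells. Leaving out cells with at least 3 leukocyte markers, or the richest cell, was chosen after seeing the data. Leaving out called doublets, or haemoglobin and mitochondrial UMIs from the totals, moved no ratio beyond its interval. *Cxcl5* and, outside D6 code 5, *Cxcl1* and *Ccl5* rest on a few UMIs, and how far depth sets this was not tested.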
